A study of Mus musculus with 12 samples.

Results

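The 49 genes described here encode chromatin regulators: histone acetyltransferases and their scaffold, subunits of the BAF and PBAF remodelling complexes, histone methyltransferases and demethylases, CHD remodellers, the core of Polycomb repressive complex 2 (PRC2), enzymes of DNA methylation and demethylation, and deacetylases. They were chosen by gene symbol from the 52550 genes in the count table, and all 49 passed the filter on low counts. The libraries are RNA immunoprecipitation sequencing (RIP-seq), in which an antibody pulls down a protein with the RNA bound to it, and the RNA in the immunoprecipitate (IP) is compared with the input RNA of the same tissue. All mice were wild-type C57BL/6. The groups were anti-Ythdf1 IP, anti-Ythdf2 IP and input from retina at postnatal day 0, and anti-Ythdf1 IP, anti-Ythdf2 IP and input from cortex at embryonic day 12.5, with 2 libraries in each of the 6 groups and 100 ng of RNA per library. No IP with an unrelated antibody was analysed here, so the input is the only background. Nothing in the labels says that the 2 libraries of a group came from separate animals, and p-values therefore measure only the spread between these libraries, which may be technical.

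Ythdf1 and Ythdf2 are cytoplasmic YTH domain proteins that read N6-methyladenosine (m6A), a methyl mark laid on adenosines of messenger RNA. Ythdf1 is known for promoting translation of its targets and Ythdf2 for recruiting the decay machinery. Chromatin regulators set which genes a neural progenitor can switch on, and many of those listed here are mutated in human neurodevelopmental syndromes.

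Library totals ran from 19530226 to 40515980 counts. The share of counts in protein-coding genes was 41.1% in cortex input replicate 2. It was 17.4% and 10.4% in the cortex Ythdf1 IP and 22.4% and 38.6% in the cortex Ythdf2 IP. In the retina libraries it was 8.37% to 11.5%, and it was 4.65% in cortex input replicate 1. That library stood apart from its partner: the Spearman correlation of protein-coding counts was 0.632 between the cortex inputs and 0.908 to 0.975 between the replicates of the other groups. It went against its label, with 8967 counts of Camk2a, a kinase of mature neurons, against 237 in cortex input replicate 2, and with 145 counts of the progenitor gene Nes against 19126. The main results therefore take cortex input replicate 2 as the cortex baseline and use 11 libraries, and values with all 12 libraries stand beside the counts. The other libraries matched their labels: the photoreceptor gene Crx had 844 to 1474 counts in the retina libraries and 0 to 4 in cortex, and the cortex gene Emx2 had 0 to 3 counts in retina and 507 to 7295 in these 5 cortex libraries.

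The m6A mark sits most often in short motifs such as GGACT, commonly near the stop codon. The motif was searched on the transcript strand of the transcript with the longest coding sequence of each gene (GENCODE M21, GRCm38). The windows below are those nearest the stop codon in 10 members that the results turn on, given so that the RNA context of higher and lower members can be read side by side; capitals mark GGACT.
Trrap: ccctgaactgGGACTccctgtgtac
Arid1b: agtggtggtgGGACTgcctcgaggt
Kmt2d: atatgggccgGGACTacccagaagt
Tet3: aagccagtggGGACTgttcactggt
Kdm5b: atgtaattcaGGACTccaataaaga
Dnmt1: ctgctaccaaGGACTagtgctctca
Smarce1: tggaaagcacGGACTcctttaacaa
Ezh2: agagaagcagGGACTgaaactgggg
Hdac1: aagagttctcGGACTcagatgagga
Hdac2: gttttggcatGGACTgtatttattt
The motif began 33 bases after the stop codon in Kdm5b, 104 after it in Hdac2, 245 after it in Trrap and 297 after it in Kmt2d. In the other 6 it began inside the coding sequence, and in Dnmt1 its last base was also a base of the stop codon TAG. The Tet3 transcript used had 0 bases after its stop codon, so no motif could be found there. Trrap lies at chr5:144767732-144859778 on the plus strand, Kmt2d at chr15:98831669-98871204 on the minus strand, and Hdac2 at chr10:36974544-37001889 on the plus strand. GGACT occurred in 48 of 49 members (98.0%), against 91.9% of 14703 protein-coding transcripts, and Suz12 was the member without it. It began within 200 bases of the stop codon in 42.9% of members and 39.5% of protein-coding transcripts. Its density was close to the background, with a median of 0.988 per kb in members and 1.06 per kb in protein-coding transcripts. A match is a description of the letters, not a measured m6A site.

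In the retina Ythdf1 IP 18 of 49 members were higher than in input and 7 were lower. The test was edgeR's quasi-likelihood test on the 11 libraries with Benjamini-Hochberg adjustment over 20278 genes, and calls were made at adjusted p below 0.05. Over all genes 13.7% were called higher and 13.4% lower, and over the 14760 protein-coding genes 18.4% were higher and 14.3% lower. The members' 36.7% higher thus stood above that background and their 14.3% lower beside it, with no test of the list as a whole. The members were chosen with earlier results of these data known, so their excess is not independent evidence. Their median log2 fold change over input was 0.55, against 0.00 over all genes tested, and 0.15 once the trend of fold change on exon length over all genes was subtracted. As a share of protein-coding counts, the 49 genes took 1.58% and 1.60% in the 2 Ythdf1 IP libraries, against 0.742% and 0.81% in the 2 inputs. The retina libraries fitted alone called 18 higher and 8 lower. Cortex input replicate 1, added in the fit on all 12 libraries, enters this comparison only through the shared filter, scaling and spread. Leaving out Ythdf1 IP replicate 1 left 7 higher and 1 lower, leaving out replicate 2 left 6 higher and 2 lower, and the fit on all 12 libraries called 2 higher and 0 lower. In each of the 11 fits that left out 1 library, 7 of the 25 calls held: Trrap, Arid1b, Arid2, Kdm5b, Kdm5c and Chd8, which were higher, and Smarce1, which was lower.

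The other 3 IPs called fewer members. In the retina Ythdf2 IP 5 members were higher and 3 lower, against 5.82% and 7.64% of all genes, and the members' median log2 fold change was 0.26 against 0.00 over all genes, or -0.13 after subtraction of the length trend. In the cortex Ythdf1 IP 2 were higher and 2 lower, against 1.55% and 2.17% of all genes, with a median of 0.25 against -0.01. Without cortex Ythdf1 IP replicate 1 the members' median turned to -0.22 and that of all genes to -0.19. In the cortex Ythdf2 IP 3 were higher and 5 lower, against 2.48% and 5% of all genes, with a median of 0.38 against 0.06. As shares of the 49 members these are 10.2% and 6.12%, 4.08% and 4.08%, and 6.12% and 10.2%, each resting on 5 genes or fewer. The input libraries are shared by both antibodies of a tissue, so the values of its 2 IPs are not independent.

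These 3 counts moved with single libraries. For the retina Ythdf2 IP no member was called without its replicate 1, 1 was lower without its replicate 2, 2 were higher and 1 lower without either retina Ythdf1 IP library, and 11 were higher and 3 lower without retina input replicate 2. For the cortex Ythdf1 IP no member was called without its replicate 1, 2 were higher without its replicate 2, 1 was higher without any 1 of the 4 retina IP libraries, and 4 were higher and 3 lower without either retina input. For the cortex Ythdf2 IP 2 were higher and 2 lower without its replicate 1, 1 was higher without its replicate 2, and 2 were higher and 3 lower without any 1 of the 4 retina IP libraries. Of the retina Ythdf2 calls, that of Kmt2e held in 4 of 11 single-library omissions and those of Arid2 and Kdm5c in 5. Those of Arid1b and Ezh2 held in 6 and that of Hdac2 in 10. Those of Trrap and Hdac4 held in 9, being lost without either replicate of that IP. With all 12 libraries none of these 3 comparisons called a member. Scaling by protein-coding totals moved the median of all genes by 0.42 in the retina Ythdf2 IP, 0.13 in the cortex Ythdf1 IP and 0.33 in the cortex Ythdf2 IP, and gave 12 higher and 1 lower, 3 higher and 1 lower, and 7 higher and 2 lower in that order. DESeq2's size factors gave 2 higher and 1 lower in the cortex Ythdf1 IP and 4 of each in the cortex Ythdf2 IP. Every call of the 4 IP comparisons kept its sign under each of these settings.

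Across the 4 IP comparisons 26 members were called at least once, 18 higher and 8 lower, and none was called in both directions. The other 23 were called in none.

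**Figure D1:**
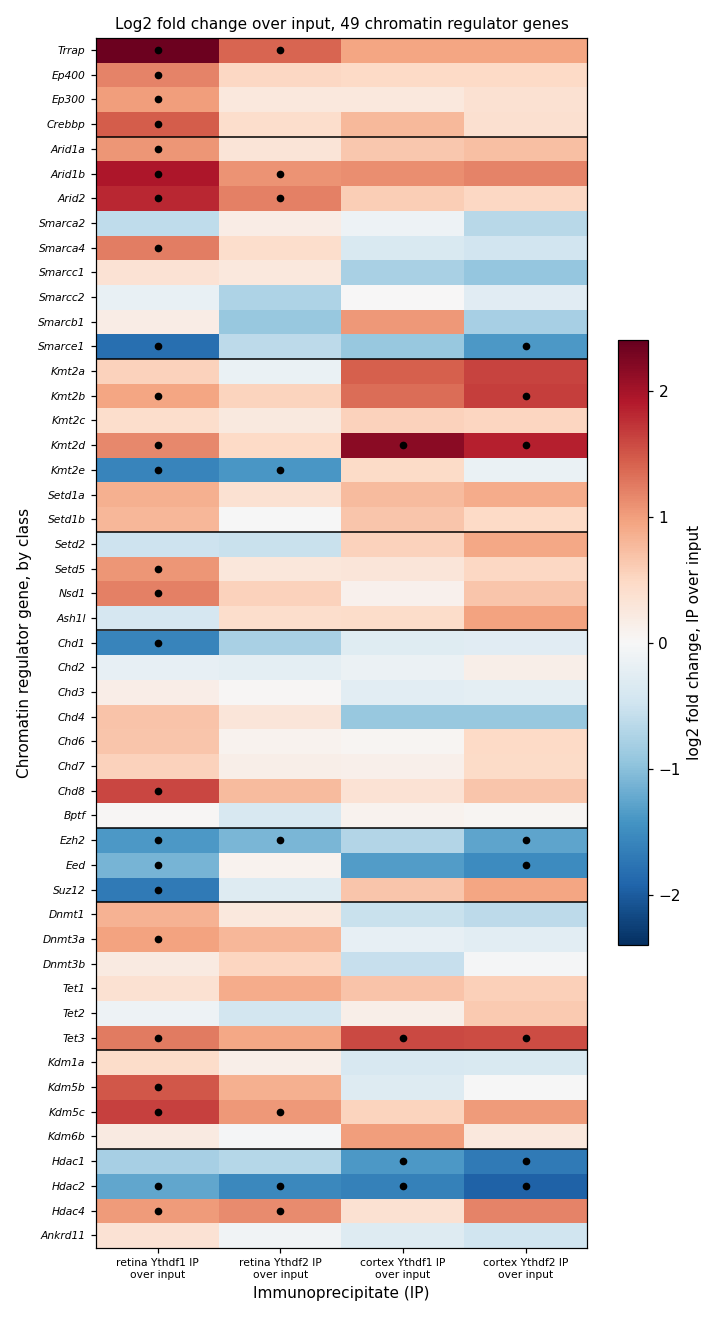
Log2 fold change over input (colour) of the 49 chromatin regulator genes (rows, grouped by class with lines between classes) in the 4 IPs (columns); a black dot marks an adjusted p under 0.05. The 4 acetyltransferase and scaffold genes are higher in the retina Ythdf1 IP, the 3 PRC2 genes are lower there, and Hdac2 is lower in all 4 columns.

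Of the acetyltransferase and scaffold class 4 of 4 members were called higher in the retina Ythdf1 IP, where 18.4% of protein-coding genes were. The call of Trrap held in every single-library omission, that of Crebbp was lost without retina Ythdf1 IP replicate 2, that of Ep400 without either Ythdf1 IP replicate, and that of Ep300 held in 5 of 11 omissions. Trrap, the large scaffold subunit of several acetyltransferase complexes, had 193 and 179 normalised CPM (CPM, counts relative to library size, after scaling between libraries by trimmed means, TMM) in the retina Ythdf1 IP, 101 and 90.6 in the retina Ythdf2 IP, and 41.7 and 31.2 in retina input. Each of those IP libraries lay above both inputs, and the Ythdf1 IP libraries lay above the Ythdf2 IP libraries. The log2 fold change over input was 2.35 ± 0.34 (SE, adjusted p = 0.000179) for Ythdf1 and 1.39 ± 0.33 (adjusted p = 0.00975) for Ythdf2. In cortex Trrap had 134 and 99.0 normalised CPM in the anti-Ythdf1 IP, 110 and 123 in the anti-Ythdf2 IP, and 60.2 in the input, and neither IP passed the test (adjusted p = 0.24 and 0.185). Crebbp, a histone acetyltransferase and coactivator, had 113 and 114 normalised CPM in the retina Ythdf1 IP, against 37.4 and 45.4 in retina input, with a log2 fold change of 1.45 ± 0.35 (adjusted p = 0.00634). Ep400, the remodelling ATPase of the complex that carries Trrap and the acetyltransferase Kat5, had 72.5 and 63.8 against 31.6 and 28.0 normalised CPM, with a log2 fold change of 1.19 ± 0.31 (adjusted p = 0.00844). Ep300, the paralogue of Crebbp, was higher by 1.01 on the log2 scale. All 4 genes were above 0 in each of the other 3 IPs, where Trrap in the retina Ythdf2 IP was the only one called.

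The BAF and PBAF complexes slide and eject nucleosomes with an ATPase, Smarca4 or Smarca2. Their 9 members split by subunit in the retina Ythdf1 IP, with Arid1a, Arid1b, Arid2 and Smarca4 higher and Smarce1 lower. Arid1b, a large DNA-binding subunit of BAF, had 118 and 120 normalised CPM in the retina Ythdf1 IP, 69.3 and 61.2 in the retina Ythdf2 IP, and 30.1 and 32.1 in retina input. All 4 IP libraries lay above both inputs, with log2 fold changes of 1.94 ± 0.34 for Ythdf1 (adjusted p = 0.000691) and 1.07 ± 0.33 for Ythdf2 (adjusted p = 0.042). In cortex Arid1b had 88.4 and 50.5 normalised CPM in the anti-Ythdf1 IP, 69.9 and 77.2 in the anti-Ythdf2 IP and 32.1 in the input, and the log2 fold changes of 1.11 and 1.20 missed the threshold (adjusted p = 0.173 and 0.1). Arid2, the corresponding subunit of PBAF, had 104 and 108 normalised CPM in the retina Ythdf1 IP, 75.7 and 65.5 in the Ythdf2 IP, and 18.6 and 42.2 in the input. Its inputs differed by more than 2-fold, yet both lay below all 4 IP libraries, and both IPs were called (1.81 ± 0.38, adjusted p = 0.00263, and 1.22 ± 0.38, adjusted p = 0.0437).

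Smarce1, a small HMG-box subunit of the same complexes, went the other way. It had 13.8 and 16.0 normalised CPM in the retina Ythdf1 IP, 34.4 and 33.2 in the retina Ythdf2 IP, and 59.8 and 45.4 in retina input. The 3 retina groups did not overlap, and the log2 fold change was -1.82 ± 0.31 for Ythdf1 (adjusted p = 0.00055) and -0.64 ± 0.30 for Ythdf2 (adjusted p = 0.184). In cortex it had 61.4 and 61.1 in the anti-Ythdf1 IP, 44.2 and 43.5 in the anti-Ythdf2 IP and 115 in the input, with -0.90 ± 0.35 (adjusted p = 0.19) and -1.39 ± 0.35 (adjusted p = 0.0239). That cortex call held in 4 of 10 single-library omissions. The annotation holds a processed pseudogene of it, Smarce1-ps1, which reached at most 151 counts in a library, so reads may be split between the copies. Smarca2, Smarcc1, Smarcc2 and Smarcb1, an ATPase and 3 core subunits, were called in none of the 4 IPs, with log2 fold changes of -0.93 to 1.05.

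The Kmt2 and Setd1 proteins place methyl groups on lysine 4 of histone H3 at enhancers and promoters, while Kmt2e is a relative known to bind chromatin. Kmt2d, an enhancer methyltransferase, was the member with the largest rise in cortex. It had 232 and 169 normalised CPM in the cortex Ythdf1 IP, 134 and 189 in the cortex Ythdf2 IP, and 44.5 in cortex input, and every IP library was above the input. The log2 fold changes were 2.17 ± 0.45 (adjusted p = 0.0146) and 1.86 ± 0.44 (adjusted p = 0.0179), and the calls were lost without replicate 1 of the Ythdf1 IP and without replicate 2 of the Ythdf2 IP. In retina it had 134 and 118 in the anti-Ythdf1 IP, 77.2 and 80.8 in the anti-Ythdf2 IP, and 63.2 and 49.8 in the input, with 1.15 ± 0.33 (adjusted p = 0.0173) and 0.48 ± 0.33 (adjusted p = 0.381). Kmt2b, a promoter methyltransferase, had 35.3 and 27.7 normalised CPM in the cortex Ythdf2 IP, against 9.97 in cortex input (1.66 ± 0.41, adjusted p = 0.022), and was also higher in the retina Ythdf1 IP by 0.95.

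Kmt2e fell in both retina IPs. It had 10.2 and 9.71 normalised CPM in the retina Ythdf1 IP, 12.9 and 9.83 in the retina Ythdf2 IP, and 15.9 and 43.7 in retina input. The inputs did not overlap with the IPs but differed from each other by more than 2-fold, and the log2 fold changes were -1.58 ± 0.44 (adjusted p = 0.0145) and -1.39 ± 0.44 (adjusted p = 0.0482). Both calls were lost without retina input replicate 2 and without either retina Ythdf1 IP library. The Ythdf2 call held in 4 of 11 single-library omissions and was also lost with protein-coding totals and the replicate block. In cortex Kmt2e had 84.3 and 49.1 normalised CPM in the anti-Ythdf1 IP, 54.7 and 32.9 in the anti-Ythdf2 IP and 48.7 in the input, and the log2 fold changes of 0.46 and -0.15 were not called. Srpk2 on the opposite strand shares 9.31% of the Kmt2e exon bases, and the strand setting of the counts is not given in the sources used here. Kmt2a, Kmt2c, Setd1a and Setd1b were called in none of the 4 IPs. Of the other SET domain proteins, Nsd1, which methylates lysine 36 of histone H3, and Setd5 were higher in the retina Ythdf1 IP by 1.20 and 1.06, and Setd2 and Ash1l were called nowhere.

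**Figure D2:**
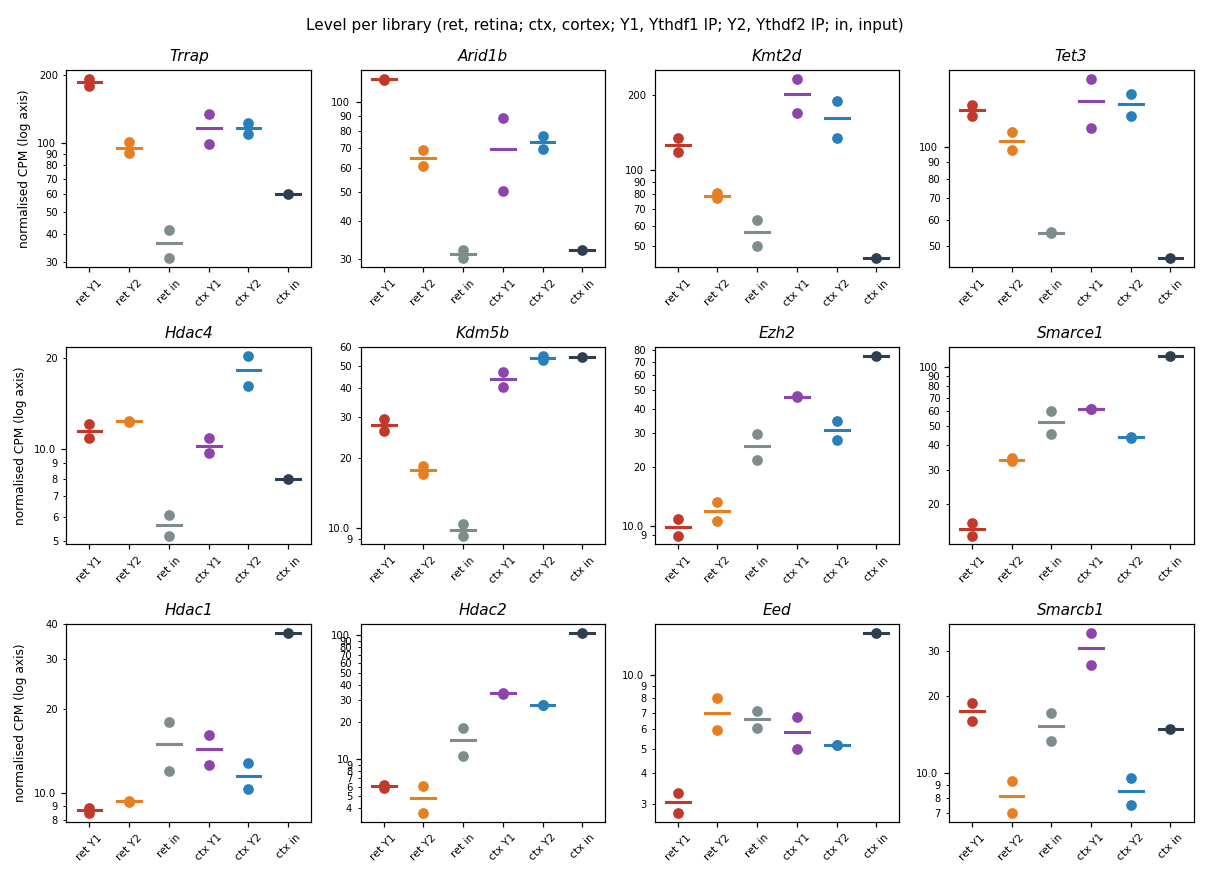
Normalised CPM per library (log axis, each point a library, bars the group means) of 12 members in the retina Ythdf1 IP, retina Ythdf2 IP, retina input, cortex Ythdf1 IP, cortex Ythdf2 IP and cortex input. Trrap, Arid1b and Hdac4 lie above the retina input in all 4 retina IP libraries, while Ezh2 and Hdac2 lie below the input in the IPs of both tissues.

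The CHD proteins are ATPases with chromodomains, Chd3 and Chd4 belonging to the NuRD complex, and Bptf is the large subunit of the NURF remodeller. Of these 8 genes 1 rose and 1 fell in the retina Ythdf1 IP and none was called in the other 3 IPs. Chd8 had 36.8 and 39.5 normalised CPM in the retina Ythdf1 IP, against 9.34 and 15.8 in retina input, with no overlap and a log2 fold change of 1.60 ± 0.35 (adjusted p = 0.00293). Chd1 had 4.55 and 4.05 in the retina Ythdf1 IP, against 5.04 and 20.9 in retina input, with -1.59 ± 0.50 (adjusted p = 0.0273). The Chd1 value rests on retina input replicate 2, without which the call was lost. Chd2, Chd3, Chd4, Chd6, Chd7 and Bptf had log2 fold changes of -0.20 to 0.68 in that IP.

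PRC2 places the repressive mark on lysine 27 of histone H3, with Ezh2 as its catalytic subunit and Eed and Suz12 as its other core members. In the retina Ythdf1 IP 3 of 3 were lower, where 13.4% of all genes were. All 3 calls were lost without retina Ythdf1 IP replicate 1, and those of Eed and Suz12 also without its replicate 2 or without retina input replicate 2. Ezh2 had 8.93 and 10.8 normalised CPM in the retina Ythdf1 IP, 13.3 and 10.5 in the retina Ythdf2 IP, and 21.8 and 29.6 in retina input. Both IPs lay wholly below the input, with log2 fold changes of -1.38 ± 0.31 (adjusted p = 0.00417) and -1.10 ± 0.31 (adjusted p = 0.0282). In cortex Ezh2 had 46.6 and 46.0 in the anti-Ythdf1 IP, 34.7 and 27.6 in the anti-Ythdf2 IP and 75.0 in the input, with -0.69 ± 0.37 (adjusted p = 0.354) and -1.27 ± 0.36 (adjusted p = 0.0425). The Ythdf2 call held in 4 of 10 single-library omissions.

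Eed had 2.75 and 3.32 normalised CPM in the retina Ythdf1 IP, against 6.07 and 7.12 in retina input, with -1.12 ± 0.34 (adjusted p = 0.0212). In the retina Ythdf2 IP Eed was not lower, with 8.0 and 5.96 normalised CPM and a log2 fold change of 0.08 (adjusted p = 0.965). In the cortex Ythdf2 IP Eed had 5.20 and 5.16, against 14.7 in cortex input, with -1.51 ± 0.38 (adjusted p = 0.023). Neither Eed call held when the libraries were scaled by protein-coding totals, and Ezh2 in the retina Ythdf2 and cortex Ythdf2 IPs was lost there too. Suz12 had 3.60 and 3.80 normalised CPM in the retina Ythdf1 IP, against 5.87 and 18.2 in retina input, with -1.70 ± 0.50 (adjusted p = 0.0192). Its inputs differed by more than 2-fold. In cortex Suz12 had 22.5 and 17.6 in the anti-Ythdf1 IP, 35.1 and 14.1 in the anti-Ythdf2 IP and 12.7 in the input, with log2 fold changes of 0.66 and 0.95 that were not called.

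Tet3, a dioxygenase that oxidises methylated cytosine, was the one gene of DNA methylation or demethylation called in both tissues. It had 162 and 114 normalised CPM in the cortex Ythdf1 IP, 124 and 146 in the cortex Ythdf2 IP and 45.7 in cortex input, with 1.59 ± 0.42 (adjusted p = 0.0447) and 1.56 ± 0.42 (adjusted p = 0.0319). In retina it had 134 and 124 in the anti-Ythdf1 IP, 111 and 97.8 in the anti-Ythdf2 IP, and 54.9 and 54.5 in the input, with 1.24 ± 0.32 (adjusted p = 0.00887) and 0.93 ± 0.32 (adjusted p = 0.0645). All 8 IP libraries lay above the inputs of their tissue. Each cortex call held in 5 of 10 single-library omissions. Both were lost without any 1 of the 4 retina IP libraries, with the cortex libraries fitted alone and with the replicate block. The retina libraries enter these cortex comparisons only through the shared filter, scaling and spread. Over all settings the cortex log2 fold changes were 1.25 to 1.94 for Ythdf1 and 1.46 to 1.89 for Ythdf2. Dnmt1, which copies DNA methylation after replication, had 42.1 and 38.1 normalised CPM in the retina Ythdf1 IP, 28.0 and 26.0 in the Ythdf2 IP, and 22.1 and 23.1 in the input. In cortex Dnmt1 had 105 and 67.6 in the anti-Ythdf1 IP, 59.9 and 101 in the anti-Ythdf2 IP and 125 in the input, and none of the 4 differences passed the test (adjusted p = 0.0859 to 0.703). The de novo methyltransferase Dnmt3a was higher in the retina Ythdf1 IP by 0.96, and Dnmt3b, Tet1 and Tet2 were called in none.

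Kdm5b and Kdm5c remove methyl groups from lysine 4 of histone H3. Kdm5c had 37.5 and 34.9 normalised CPM in the retina Ythdf1 IP, 27.6 and 20.4 in the retina Ythdf2 IP, and 10.1 and 13.1 in retina input, all IP libraries being above the inputs. The log2 fold changes were 1.64 ± 0.32 (adjusted p = 0.00138) and 1.05 ± 0.31 (adjusted p = 0.036). Kdm5b had 26.1 and 29.4 in the retina Ythdf1 IP, 17.0 and 18.4 in the Ythdf2 IP, and 9.30 and 10.4 in the input. Again the groups did not overlap, and the Ythdf1 value of 1.50 ± 0.30 was called (adjusted p = 0.00163) while the Ythdf2 value of 0.85 ± 0.29 was not (adjusted p = 0.0687). The lysine 4 demethylase Kdm1a and the lysine 27 demethylase Kdm6b were called in no IP.

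Hdac1 and Hdac2 are the paired class I deacetylases of the NuRD, Sin3 and CoREST complexes. Hdac2 was called lower in all 4 IPs, and Hdac1, Ezh2, Smarce1 and Chd1 also had values below 0 in all 4 without being called in each. It had 6.21 and 5.87 normalised CPM in the retina Ythdf1 IP, 3.68 and 6.08 in the retina Ythdf2 IP, and 10.6 and 17.9 in retina input, with -1.24 ± 0.34 (adjusted p = 0.0135) and -1.55 ± 0.35 (adjusted p = 0.00815). In cortex it had 33.8 and 34.2 in the anti-Ythdf1 IP, 27.1 and 27.4 in the anti-Ythdf2 IP and 105 in the input, with -1.62 ± 0.39 (adjusted p = 0.0304) and -1.94 ± 0.39 (adjusted p = 0.00704). No IP library overlapped the inputs of its tissue. The cortex Ythdf1 call held in 4 of 10 single-library omissions, and the retina Ythdf1 call was lost without either of its own replicates or retina input replicate 2. The Ythdf2 calls were lost without replicate 1 of the retina IP and without replicate 2 of the cortex IP.

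Hdac1 was lower in both cortex IPs. It had 12.5 and 16.1 normalised CPM in the cortex Ythdf1 IP, 12.7 and 10.3 in the cortex Ythdf2 IP and 37.3 in cortex input, with -1.38 ± 0.36 (adjusted p = 0.0447) and -1.70 ± 0.36 (adjusted p = 0.00979). The Ythdf1 call held in 3 of 10 single-library omissions and was lost with DESeq2's size factors, protein-coding totals and the replicate block, and the Ythdf2 call was lost without cortex Ythdf2 IP replicate 2. In retina it had 8.48 and 8.80 in the anti-Ythdf1 IP, 9.32 and 9.29 in the anti-Ythdf2 IP, and 17.9 and 12 in the input, and the values of -0.79 and -0.68 missed the threshold (adjusted p = 0.0725 and 0.173). Hdac4, a class IIa deacetylase that shuttles between nucleus and cytoplasm, moved in the opposite direction in retina. It had 10.9 and 12.1 in the anti-Ythdf1 IP, 12.4 and 12.3 in the anti-Ythdf2 IP, and 6.07 and 5.20 in the input, with 1.03 ± 0.30 (adjusted p = 0.0179) and 1.13 ± 0.30 (adjusted p = 0.0203). Ankrd11, a chromatin protein that binds deacetylases, was called in no IP.

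Several measurements moved with these results. In retina, the list of 19 markers of blood, vessel, microglia, meninges, lens and pigment cells summed to 1286 and 1312 CPM of protein-coding counts in the anti-Ythdf1 IP, 777 and 822 in the anti-Ythdf2 IP, and 299 and 281 in the input. Kdr made up most of that sum, with 4608 and 3914 counts in the anti-Ythdf1 IP, 1597 and 1564 in the anti-Ythdf2 IP, and 997 and 1037 in the input, whereas Dcn, Cryaa, Crygs, Tyr, Mlana and Rpe65 were at 0 in all 6 retina libraries. In cortex the same list summed to 1262 and 2295 in the anti-Ythdf1 IP, 753 and 781 in the anti-Ythdf2 IP and 736 in the input. In retina input 13 of 49 members were at least 2-fold higher in replicate 2 than in replicate 1 and none was at least 2-fold lower, among them Arid2, Kmt2e, Chd1, Suz12, Nsd1 and Bptf, against 19.9% and 10.2% of protein-coding genes. The part of these differences in the results was not tested.

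Transcript length ran along with the direction of the members. Their median transcript was 7995 bases (1660 to 19823), against 3025 bases over protein-coding genes, and 94.8% of protein-coding transcripts were shorter than that median. In the retina Ythdf1 IP the median was 8508 bases for the 18 higher members and 2919 for the 7 lower ones, and in the cortex Ythdf2 IP it was 8469 for the 3 higher and 2067 for the 5 lower. No higher member was shorter than 5900 bases, whereas Hdac2, Hdac1, Eed, Ezh2 and Smarce1 were 2005 to 2919 bases long, and Kmt2e (7317 bases) and Chd1 (7916 bases) were lower and long. The Spearman correlation of log2 fold change with transcript length over the 49 members was 0.40 and 0.37 in the retina Ythdf1 and Ythdf2 IPs and 0.47 and 0.586 in the cortex Ythdf1 and Ythdf2 IPs. Over protein-coding genes it was 0.33, 0.411, 0.131 and 0.301 for the same IPs, and genes share their libraries, so these are descriptions. GC content, the percentage of G and C bases in the transcript, ran along too. Its correlation with log2 fold change over members was 0.446, 0.3, 0.307 and 0.159 for the same IPs. Over protein-coding genes it was 0.327, 0.077, 0.324 and 0.243. The part of either feature in the calls was not tested. After subtraction of the exon length trend, the members' medians were 0.09 and 0.04 in the cortex Ythdf1 and Ythdf2 IPs.

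**Figure D3:**
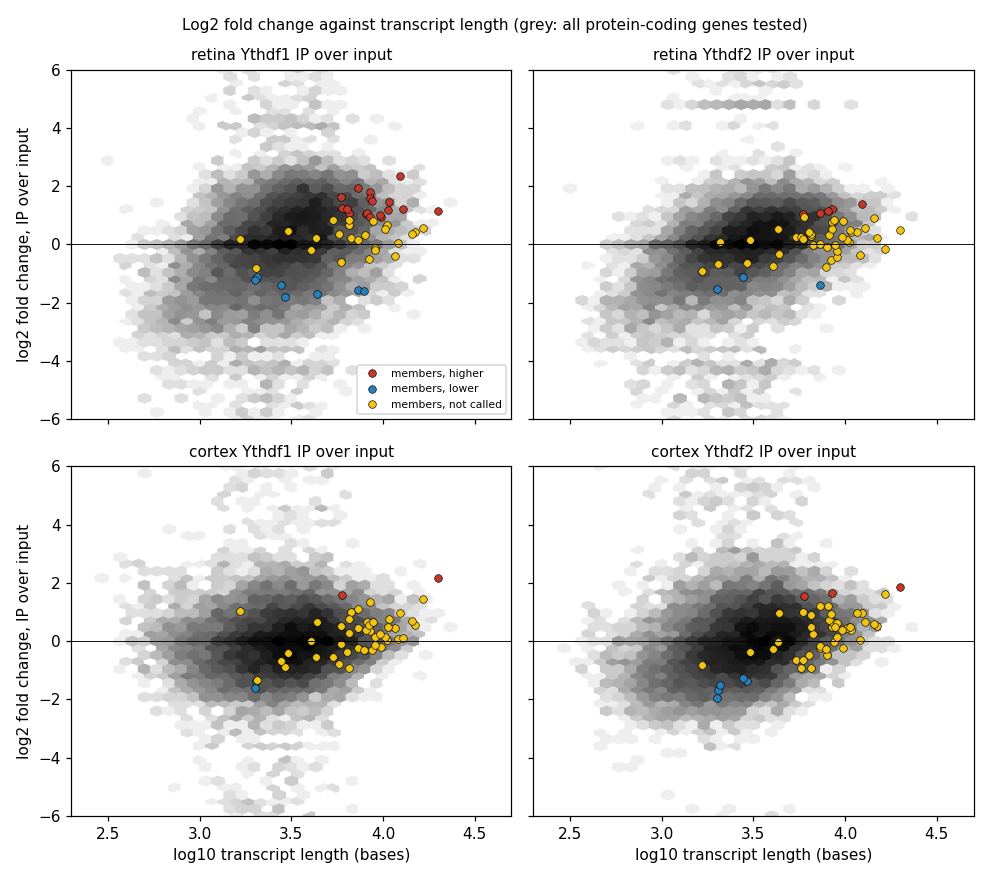
Log2 fold change over input against log10 transcript length in bases, for the 4 IPs; grey hexagons hold all protein-coding genes tested, darker where there are more (log scale), and points are the 49 members (red higher, blue lower, yellow not called), with the vertical axis limited to 6 on either side of 0. The higher members start at 5900 bases, and 5 of the members lower in at least one IP lie at 2005 to 2919 bases.

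The 2 antibodies were compared directly. In retina no member was higher and 2 were lower in the Ythdf1 IP than in the Ythdf2 IP, against 2.14% and 3.88% of all genes. These were Smarce1 (log2 difference -1.18 ± 0.30, adjusted p = 0.0317), whose 13.8 and 16.0 normalised CPM lay below the 34.4 and 33.2 of the Ythdf2 IP, and Eed (-1.20 ± 0.34, adjusted p = 0.0477), with 2.75 and 3.32 against 8.0 and 5.96. Both calls were lost without any 1 of the 4 retina IP libraries, that of Eed also without cortex Ythdf1 IP replicate 2 or either cortex Ythdf2 IP library, and leaving out either retina input gave 4 higher and 4 lower. The median over members was 0.40 against 0.00 over all genes, and Trrap, with 0.96 ± 0.32, was not called (adjusted p = 0.0901). In cortex 1 member was higher and none lower, against 0.671% and 0.0345% of all genes. It was Smarcb1, a core BAF subunit, with 26.5 and 35.3 normalised CPM in the Ythdf1 IP against 9.58 and 7.50 in the Ythdf2 IP (1.85 ± 0.32, adjusted p = 0.0141), and the call was lost without Ythdf1 IP replicate 2 or Ythdf2 IP replicate 2. With all 12 libraries neither tissue called a member.

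The difference in enrichment between tissues, retina minus cortex, tests whether an IP over input differs between them, and tissue and age change together here. For Ythdf1 1 member was called with a higher value in retina, against 1.11% of all genes higher and 2.41% lower. It was Kdm5b, with a log2 fold change over input of 1.50 in retina and -0.31 in cortex, a difference of 1.81 ± 0.45 (adjusted p = 0.037). In cortex Kdm5b had 47.0 and 40.4 normalised CPM in the Ythdf1 IP, against 54.3 in the input, so the retina libraries rose over input and those of cortex lay below it. In retina it had 26.1 and 29.4 in the Ythdf1 IP and 9.30 and 10.4 in the input. Its level was thus lower in retina than in cortex in both the IP and the input. The call was lost without any 1 of the 6 libraries of the retina Ythdf1, cortex Ythdf1 and retina Ythdf2 IPs, whereas 3 members were higher and 4 lower without retina input replicate 1 and 5 higher without retina input replicate 2. For Ythdf2 no member was called by edgeR, against 0.444% of all genes higher and 0.473% lower; 6 had an unadjusted p under 0.05, and DESeq2 called 2.

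Retina input held less RNA of these genes than cortex input relative to other genes. Of 49 members 26 were lower in retina input and none was higher, against 11.1% of all genes lower and 8.82% higher, with a median log2 difference of -1.16 against -0.18. Smarcc1, a BAF core subunit, had 19.9 and 25 normalised CPM in retina input and 173 in cortex input (-2.95 ± 0.37, adjusted p = 6.91e-05). Chd4 had 36.0 and 43.8 in retina input and 302 in cortex input (-2.92 ± 0.39, adjusted p = 0.000114). Chd3 had 22.8 and 27.3 in retina input and 180 in cortex input (-2.84 ± 0.38, adjusted p = 0.000122). Hdac2 had 10.6 and 17.9 in retina input and 105 in cortex input (-2.88 ± 0.39, adjusted p = 0.000131). By class, 7 of 8 were lower in the class of CHD genes and Bptf, and none of the 7 H3K4 methyltransferase family genes was called. Among those lower, the call of Chd1 held in 1 of 10 single-library omissions, that of Chd6 in 3 and that of Chd7 in 5. In retina input the authors' FPKM, which divide by gene length, put Smarcc2 first of the 49 at 5.97 ± 1.50 (SD, n = 2), and in cortex input they put Smarca4 first at 84.0.

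**Figure D4:**
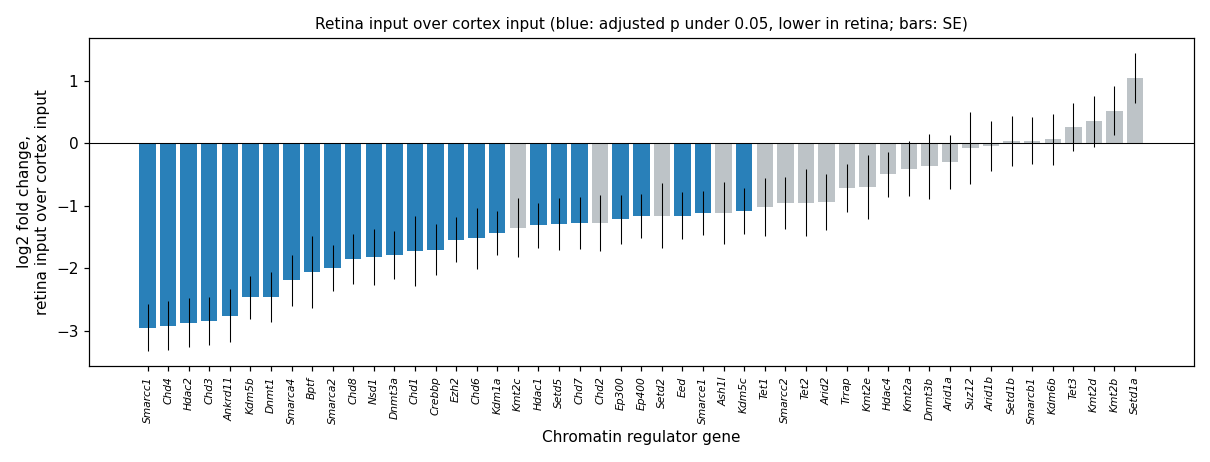
Log2 fold change of retina input over cortex input for the 49 members, sorted, with standard errors as lines; blue bars have an adjusted p under 0.05. The 26 blue bars all point down, from -2.95 for Smarcc1, and grey bars fall on both sides of 0.

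This comparison rests on 1 cortex library, in which protein-coding genes took 41.1% of counts, against 10.4% and 11.5% in the retina inputs. The TMM factors were 2.36, 0.643 and 0.69 in that order, and the part of this gap was not tested. With all 12 libraries 3 members were lower. In single-library omissions 17 were lower without any 1 of the 4 retina IP libraries, and 33 were lower and 1 higher without retina input replicate 2. Markers of neural progenitors and dividing cells summed to 1207 and 1679 CPM of protein-coding counts in retina input and 4287 in cortex input, and their part in the difference was not tested. In bulk tissue fewer cells of a type and less RNA per cell cannot be told apart. Over members the difference had a Spearman correlation of 0.055 with transcript length, and over protein-coding genes -0.266. With GC content the correlation was 0.354 over members and 0.315 over protein-coding genes.

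A list of other chromatin genes held 162, all past the filter. In the retina Ythdf1 IP 35 were higher and 33 lower, with a median log2 fold change of 0.06. These were 21.6% and 20.4% of the list, against 13.7% and 13.4% of all genes and 18.4% and 14.3% of protein-coding genes. In the retina Ythdf2, cortex Ythdf1 and cortex Ythdf2 IPs 9 and 14, 1 and 7, and 2 and 12 were higher and lower. As shares these were 5.56% and 8.64%, 0.617% and 4.32%, and 1.23% and 7.41%. Over all genes the shares were 5.82% and 7.64%, 1.55% and 2.17%, and 2.48% and 5%. The lysine 9 demethylase Kdm4b rose by 1.90 ± 0.33 in the retina Ythdf1 IP (adjusted p = 0.000659), and Men1, a subunit of the Kmt2a and Kmt2b complexes, rose there by 1.73 ± 0.30 (adjusted p = 0.000718). In the retina Ythdf2 IP the lysine 9 demethylase Kdm4a rose by 1.85 ± 0.30 (adjusted p = 0.000701) and the CoREST subunit Rcor1 by 1.50 ± 0.34 (adjusted p = 0.00836). Kmt5a, a methyltransferase of lysine 20 of histone H4, had a log2 fold change of -2.81 ± 0.33 in the retina Ythdf1 IP (adjusted p = 4.92e-05). Hmgn2, a small nucleosome-binding protein, had a log2 fold change of -3.39 ± 0.39 in the retina Ythdf1 IP (adjusted p = 4.36e-05) and -3.52 ± 0.39 in the retina Ythdf2 IP (adjusted p = 4.76e-05), and Dpy30, a core subunit of the Kmt2 complexes, had -3.24 ± 0.44 in the retina Ythdf2 IP (adjusted p = 0.000177). In cortex the lower genes with the smallest p were Gatad2b, a NuRD subunit, and Phf10, a PBAF subunit, for Ythdf1, and the PBAF subunit Brd7 and again Kmt5a for Ythdf2. Higher ones were Hdac7 for Ythdf1, the one gene called there, and Cbx6 and Men1 for Ythdf2. No test compared the 2 lists.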

How the data were processed

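RIP-seq libraries from retina and cortex were analysed from a table of raw counts per gene. The authors deposited these counts as whole numbers, with FPKM beside them, which were used only to order levels within a library. Per the submitters' processing notes, STAR 2.5, HTSeq and GRCm38 were used; annotation release, filters and strandedness are not given in the sources. Symbols, coordinates and transcripts came from GENCODE M21, which matched 52403 of 52550 genes. Groups follow the sample titles. Genes were kept by filterByExpr (minimum count 10, minimum total 15), which left 20278. A quasi-likelihood model (TMM scaling, robust fit, 1 mean per group) was fitted in edgeR 4.0.16 under R 4.3.3 to 11 libraries, without cortex input replicate 1, leaving 5 residual degrees of freedom; the lone cortex input is assumed to vary like the other groups. It gave 9 comparisons, two-sided, with Benjamini-Hochberg adjustment over all genes tested. The standard error is the size of the log2 fold change over the square root of F. The fit was also run on counts simulated from its own estimates of the spread. That run cannot test those estimates, and nothing here is drawn from it. A floor of 3 counts equals 0.0326 to 0.184 normalised CPM, and depth sets counting error only. Alternatives were all 12 libraries, DESeq2 1.42.0 and its size factors, protein-coding totals, no filter, one tissue alone, a replicate block, a length trend and single-library omissions. Members, lists and tests were chosen with earlier results of these data known. Full values were given to up to 8 higher and 8 lower called members per IP comparison and 4 and 4 elsewhere, by smallest p, with Trrap, Arid1b, Ezh2, Dnmt1, Hdac1, Hdac2, Smarce1 and Kmt2d always included against input; 2 higher and 2 lower of the other chromatin genes were named per IP, and Trrap and Kdm5b elsewhere were named after their values were seen.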

Additional observations from a re-analysis of the deposited data

Results flagged for a closer look

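Kdm5b differed between tissues in the Ythdf1 IP: its log2 fold change over input was 1.81 higher in retina than in cortex by a test of that difference (edgeR quasi-likelihood, adjusted p = 0.037), and the Ythdf2 IP gave 0.86 for the same difference (adjusted p = 0.418). In the IP itself Kdm5b was lower in retina, at 26.1 and 29.4 normalised CPM against 47.0 and 40.4 in cortex. Its inputs were 9.30 and 10.4 in retina and 54.3 in the 1 cortex library, and it was among the members called lower in retina input. The Ythdf1 tissue difference was called in 7 of 16 alternative settings. It was lost with all 12 libraries, with DESeq2's size factors and with the replicate block.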

How the results depend on the processing

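Counts are of the 49 members called in either direction. With all 12 libraries they were 2 and 0 for the retina Ythdf1 and Ythdf2 IPs and 3 for the inputs. They were 0 for both cortex IPs, both antibody comparisons and the Ythdf1 tissue difference. With the retina libraries alone they were 26 and 10 for the retina Ythdf1 and Ythdf2 IPs. The DESeq2 Wald test called 10 and 13 for the cortex Ythdf1 and Ythdf2 IPs, 6 for the retina antibody comparison, and 6 and 2 for the Ythdf1 and Ythdf2 tissue differences. Protein-coding totals gave 13 for the retina Ythdf2 IP, cortex libraries alone 5 for the cortex Ythdf2 IP, DESeq2's size factors 0 and no filter 3 for the Ythdf1 tissue difference. With a replicate block the counts were 5 for the retina Ythdf2 IP, 1 and 5 for the cortex Ythdf1 and Ythdf2 IPs, 1 for the retina antibody comparison and 0 for the Ythdf1 tissue difference; same-numbered libraries did not deviate together (correlations of -0.068 to 0.042), so they share only a number. Leaving out single libraries gave 8 to 25 and 0 to 14 for the retina Ythdf1 and Ythdf2 IPs, 0 to 7 and 1 to 12 for those of cortex, 0 to 8 and 0 to 1 for the retina and cortex antibody comparisons, 0 to 7 and 0 to 1 for the Ythdf1 and Ythdf2 tissue differences, and 17 to 34 for the inputs. The members' median reversed its sign in the retina Ythdf2 IP minus the length trend (-0.13). In the cortex Ythdf1 IP it reversed without replicate 1 (-0.22, against -0.19 over all genes), the lowest of single-library omissions that reached 0.49. With all 12 libraries the sign reversed for Smarce1 (0.013), Ezh2 (0.27) and Dnmt1 (0.39) in the cortex Ythdf1 IP. It also reversed for Dnmt1 (0.27) in the cortex Ythdf2 IP. None of these genes was called there. The cause was not tested. Low counts limit the precision of members such as Dnmt3b, Eed and Hdac2, and 2 libraries per group limit every comparison.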
